A study of Arabidopsis thaliana with 36 samples.

Results

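Suberin is a polyester of fatty acid derivatives, glycerol and ferulate that roots lay down between the plasma membrane and the wall of endodermal cells, where it limits the passage of water and solutes. In this study 10 genes of its synthesis and export in Arabidopsis thaliana were followed in seedling roots. They are 9 enzymes and 1 transporter, taken by locus identifier, and 10 of 10 were present among the 16283 genes of the normalized count matrix. Their levels were read in its 18 root libraries, and the 18 shoot libraries served for comparison.

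The pathway starts with fatty acyl chains that the ketoacyl-CoA synthases KCS2 (AT1G04220) and KCS20 (AT5G43760) help to lengthen. The cytochromes P450 CYP86A1 (AT5G58860) and CYP86B1 (AT5G23190) then oxidize the far end of the chain, and the reductases FAR1 (AT5G22500), FAR4 (AT3G44540) and FAR5 (AT3G44550) make primary alcohols from a share of the chains. GPAT5 (AT3G11430) joins acyl groups to glycerol 3-phosphate, ASFT (AT5G41040) links ferulate to hydroxylated chains, and the half-size ABC transporter ABCG6 (AT5G13580) takes part in moving monomers out of the cell. In roots several of these genes are known for activity in the endodermis and for induction by abscisic acid (ABA) and salt, though not every member need respond alike.

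The seedlings were wild type of the Columbia-0 ecotype, 7 d old and grown at 21 °C. By the labels they were held in water for 1 h. Treated seedlings were held in 30% polyethylene glycol of average molecular weight 8000 (PEG) with 1 mM salicylhydroxamic acid (SHAM) for 1, 2 or 3 h. SHAM is known as an inhibitor of the alternative oxidase and of lipoxygenases, and the solution had an osmotic pressure of -2.0 MPa. The treatment protocol also gives 0.1 mM SHAM, so the concentration is uncertain. For the water sets the protocol names a time other than the labelled 1 h, so their time is uncertain too. The 3 water sets carry the title prefixes S0, PH0 and PS0, and only PS0 shares its prefix with the treated groups. Each of the 6 root groups has 3 libraries, each from 30 to 50 pooled seedlings that the labels call a biological replicate. Transcripts were counted by MARS-seq, which reads the 3′ end of a transcript. PEG alone and SHAM alone were not analysed here, so their effects cannot be told apart. All treated groups, those of 2 h and 3 h included, are set against water labelled 1 h.

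Root libraries held 429.8 to 7181.5 kiloreads, recovered from the normalized values, with a median of 1852.0. The shallowest were 1 h replicate 2 (429.8) and PS0 replicate 3 (521.0). All 9 listed endodermis markers found in the table were detected in every root group. Their summed level was 1998.3 to 2209.8 normalized counts in S0, 1709.3 to 1955.8 in PH0, 1229.5 to 1387.3 in PS0, 848.8 to 1187.8 at 1 h, 683.2 to 1064.5 at 2 h, then 573 to 633 at 3 h. Photosynthesis markers summed to 367.1 to 2665.6 in roots, highest in 1 h replicate 2, and to at least 82214.4 in shoots. In whole roots, fewer endodermal cells and less RNA per cell cannot be told apart.

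The 250 bases before the annotated gene start were read for each gene from the RefSeq TAIR10.1 genome by locus identifier. The deposited table names no build and holds no coordinates, so none are given. Given here, 5′ to 3′ on the strand of the gene, are GPAT5 (plus strand), ASFT (plus strand), CYP86B1 (minus strand) and CYP86A1 (minus strand). They stand for a promoter with the core of the ABA-responsive element, the promoter with AC elements, that of the gene with the widest range among water sets, and one with no match. Capitals mark motif matches on either strand: ACGTG for the ABA-responsive core, ACCTACC, with its variants ACCAACC and also ACCTAAC, for AC elements bound by MYB factors, and TTGACC or else TTGACT for the W box bound by WRKY factors.
GPAT5: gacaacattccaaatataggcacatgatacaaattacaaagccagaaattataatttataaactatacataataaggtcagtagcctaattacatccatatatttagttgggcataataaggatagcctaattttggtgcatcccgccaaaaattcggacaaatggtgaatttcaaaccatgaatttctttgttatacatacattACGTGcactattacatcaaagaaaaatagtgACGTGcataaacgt
ASFT: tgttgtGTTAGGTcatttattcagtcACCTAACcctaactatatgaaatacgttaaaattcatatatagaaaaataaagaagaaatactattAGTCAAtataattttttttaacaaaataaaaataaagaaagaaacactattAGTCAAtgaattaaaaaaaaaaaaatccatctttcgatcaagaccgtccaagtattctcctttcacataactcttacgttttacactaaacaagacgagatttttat
CYP86B1: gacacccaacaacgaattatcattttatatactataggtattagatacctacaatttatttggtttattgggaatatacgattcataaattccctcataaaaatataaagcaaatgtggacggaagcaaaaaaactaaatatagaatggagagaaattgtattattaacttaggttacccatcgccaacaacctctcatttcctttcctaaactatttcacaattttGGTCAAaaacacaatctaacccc
CYP86A1: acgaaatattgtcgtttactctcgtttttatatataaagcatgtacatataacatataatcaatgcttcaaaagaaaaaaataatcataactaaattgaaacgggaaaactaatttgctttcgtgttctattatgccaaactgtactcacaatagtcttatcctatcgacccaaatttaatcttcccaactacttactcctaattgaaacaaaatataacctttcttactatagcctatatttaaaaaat

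The ABA-responsive core was present in 3 of the 10 windows, those of GPAT5, FAR1 and FAR4, and in 22.9% of the windows of all 27438 annotated protein-coding genes that could be read. GPAT5 has it with its first base 45 and 14 bases before the start. AC elements were found in ASFT alone, at 244 and 224 bases, against 6.12% of all windows. The W box was found in 5 of 10, namely ASFT, FAR4, FAR5, ABCG6 and CYP86B1, against 28.4% of all windows. KCS2, KCS20 and CYP86A1 had none of these letters in the window. The window of FAR4 overlaps another annotated gene, AT3G06845, and no motifs in the list overlapped each other. Each match describes letters only.

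All values that follow are normalized counts, that is, reads divided by 1 size factor per library. They are comparable between libraries for 1 gene but not between genes. Before testing, a gene had to reach 5 normalized counts in at least 3 root libraries, which 9 of the 10 genes did. FAR1, which makes the alcohols of the longest chains among the 3 reductases, did not: it had 37 reads over all root libraries and 0 to 4.5 normalized counts. Its mean was highest in S0, with libraries at 2.5, 3.2 and 4.5, and the 1 h libraries were at 0, 0 and 0.3. CYP86B1 passed only through S0, and ASFT and KCS20 only through water libraries, so these 3 had to be lower in treated roots than in some water set, and CYP86B1 had to be highest in S0. For them a call of that kind is no result. Where members were called in the main root comparisons below, the count is also given without them, out of 6.

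**Figure D1:**
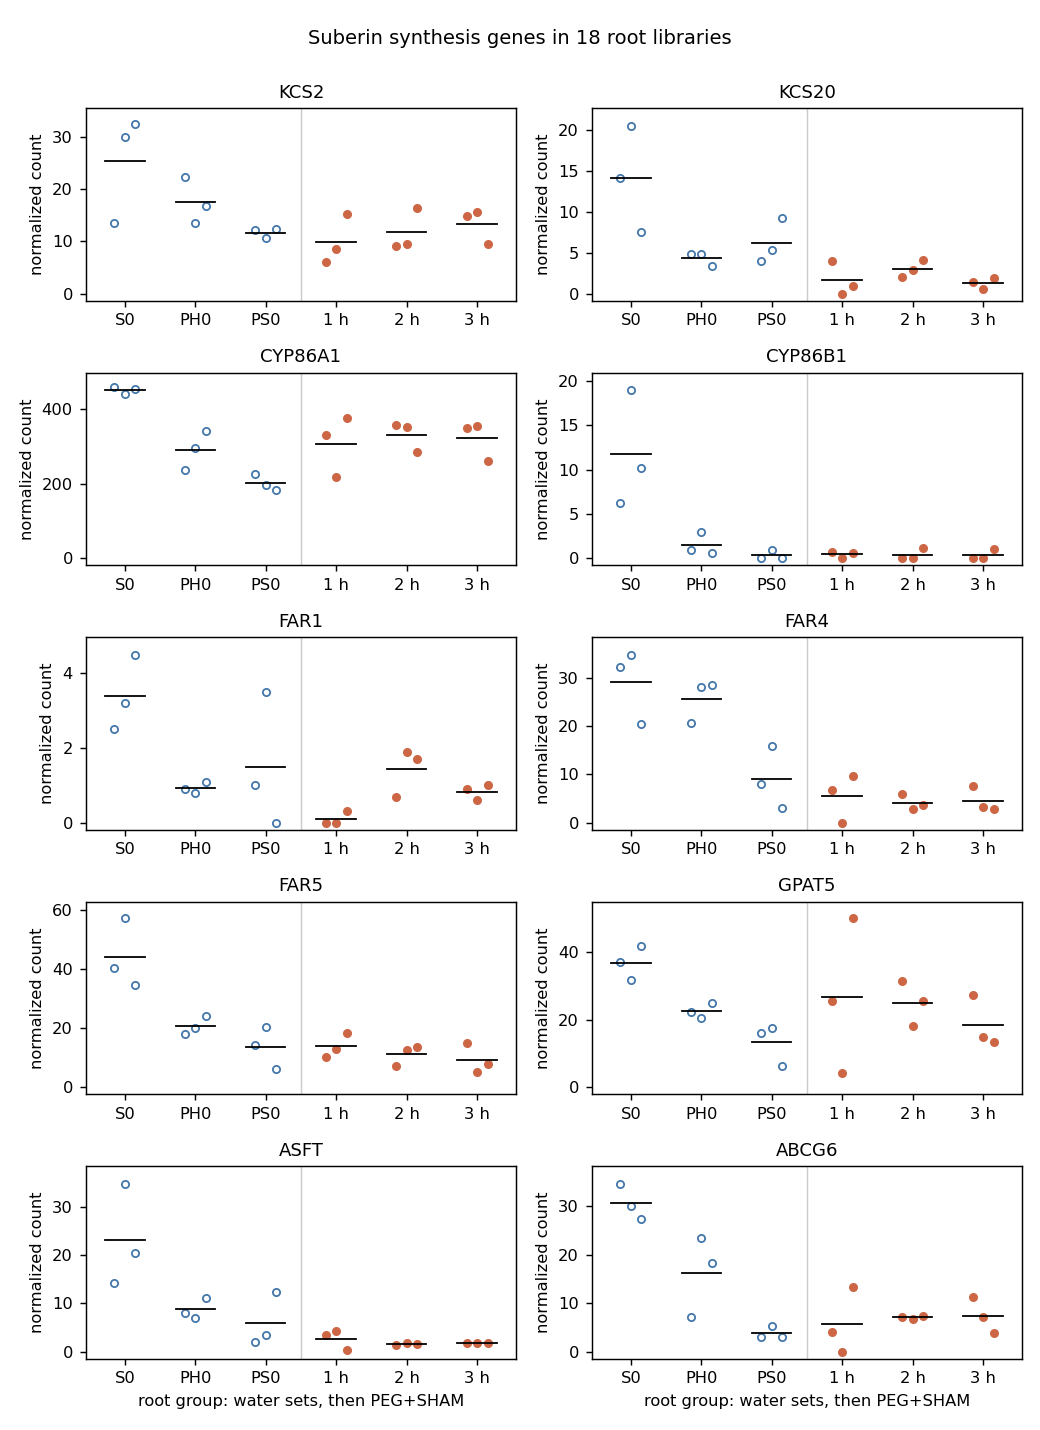
Normalized counts of the 10 suberin genes (vertical axes, separate scales) in the 18 root libraries. Open points are water sets S0, PH0 and PS0, filled points are PEG with SHAM for 1, 2 and 3 h, and black lines are means of 3 libraries; S0 has the highest mean for 10 of 10 genes and PS0 often lies near the treated groups.

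The elongation enzyme KCS2 stood at 13.6, 30.1 and 32.5 in S0 water, 22.4, 13.6 and 16.8 in PH0 and 12.1, 10.6 and 12.4 in PS0. In PEG with SHAM it stood at 6.1, 8.5 and 15.3 at 1 h, 9.2, 9.6 and 16.5 at 2 h, then 14.9, 15.6 and 9.6 at 3 h. The PS0 and treated libraries overlap throughout, while S0 and PH0 hold the highest values. The group means ran from 25.4 ± 10.3 in S0 to 9.97 ± 4.77 at 1 h (SD, n = 3), and neighbouring groups in that order overlap. KCS20, its close paralog, stood at 14.2, 20.6 and 7.6 in S0, 4.9, 4.9 and 3.4 in PH0 and 4, 5.3 and 9.3 in PS0. Treatment for 1 h gave 4, 0 and 0.9, for 2 h 2, 2.9 and 4.1, and for 3 h 1.4, 0.6 and 1.9. The 3 h libraries lie below all 9 water libraries. The labels do not say how reads matching both paralogs, or more than 1 of the 3 FAR genes, were assigned, so members of each pair or trio may share reads.

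At the step of chain-end oxidation, CYP86A1, the oxidase of long chains, stood at 460.2, 441.6 and 455.2 in S0, 235.9, 296 and 341.9 in PH0 and 226.7, 195.7 and 183.2 in PS0. It stood at 330.4, 217.5 and 375.8 at 1 h, 357, 352.7 and 285.7 at 2 h, then 348.4, 355.3 and 260.8 at 3 h. S0 lies above every other root library, and PS0 below every 2 h and 3 h library. CYP86B1, which acts on very long chains, had few reads outside S0: it stood at 6.2, 19 and 10.2 there, 0.9, 2.9 and 0.6 in PH0 and 0, 0.9 and 0 in PS0. Its 9 treated libraries held 9 reads in all and ranged from 0 to 1.2. S0 lies above all the other root libraries, which overlap among themselves.

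Of the alcohol-forming reductases, FAR4 stood at 32.2, 34.8 and 20.4 in S0, 20.6, 28 and 28.5 in PH0 and 8.1, 15.9 and 3.1 in PS0. It stood at 6.7, 0 and 9.6 at 1 h, 5.9, 2.9 and 3.7 at 2 h, then 7.5, 3.2 and 2.9 at 3 h. S0 and PH0 overlap with each other and lie above every PS0 and treated library. FAR5, which prefers shorter chains than FAR4, stood at 40.3, 57 and 34.4 in S0, 17.9, 20.1 and 24 in PH0 and 14.2, 20.4 and 6.2 in PS0. It stood at 10.1, 12.8 and 18.4 at 1 h, 7.2, 12.5 and 13.6 at 2 h, then 14.9, 5.2 and 7.7 at 3 h. S0 stands alone at the top, and PS0 spans nearly the whole range of the treated groups.

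The acyltransferase GPAT5 stood at 37.2, 31.7 and 42 in S0, 22.4, 20.6 and 25.1 in PH0 and 16.2, 17.7 and 6.2 in PS0. It stood at 25.6, 4.3 and 50.1 at 1 h, where the lowest value rests on 1 read, at 31.5, 18.3 and 25.6 at 2 h, then 27.5, 14.9 and 13.4 at 3 h. Treated libraries overlap with PH0 and PS0, and 1 h replicate 3 is the highest root library. The feruloyl transferase ASFT stood at 14.2, 34.8 and 20.4 in S0, 8.1, 7 and 11.2 in PH0 and 2, 3.5 and 12.4 in PS0. Its treated libraries ranged from 0.4 to 4.3, with 1.9 in each of the 3 h libraries, and lie below all of S0 and PH0 but not below all of PS0. The transporter ABCG6 stood at 34.7, 30.1 and 27.4 in S0, 7.2, 23.4 and 18.4 in PH0 and 3, 5.3 and 3.1 in PS0. It stood at 4, 0 and 13.3 at 1 h, 7.2, 6.7 and 7.4 at 2 h, then 11.2, 7.1 and 3.8 at 3 h. S0 lies above all the others, and PS0 is the lowest water set.

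The question of how PEG with SHAM changed these genes depended on which water set was the reference. Against PS0, no member was called at any time, 0 of 9 at 1, 2 and 3 h, where 1.67%, 3.04% and 6.56% of the 11950 tested genes were called in either direction by limma at a Benjamini-Hochberg adjusted p under 0.05. Unadjusted p was under 0.05 for 2, 1 and 2 members at these times, or for 1, 1 and 1 of 6 without CYP86B1, ASFT and KCS20. edgeR called 0 at each time, and DESeq2 called 0, 0 and 1. The DESeq2 call was CYP86A1 at 3 h, higher by 0.74 on the log2 scale with an adjusted p of 0.0485. All differences below are in log2(normalized count + 1), which understates the change of low genes.

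CYP86A1 differed from PS0 by 0.58 ± 0.23 at 1 h, 0.71 ± 0.23 at 2 h, then 0.66 ± 0.23 at 3 h (SE; limma adjusted p = 0.195, 0.113 and 0.0951). All 3 of the 3 h libraries and all 3 of the 2 h libraries lie above the PS0 libraries. KCS20 differed from PS0 by -1.70 ± 0.56, -0.81 ± 0.56 and -1.62 ± 0.56 at these times (adjusted p = 0.124, 0.532 and 0.0981). For the other 7 members at 3 h, differences ran from -0.96 for ASFT to 0.73 for ABCG6, and the 95% intervals of all 7 include 0, for ABCG6 from -0.73 to 2.20 and for FAR4 from -2.21 to 0.76. These intervals are wide enough to hold changes of more than 1 log2 unit, so the members are not shown to be unchanged. The median over the 9 members, CYP86B1, ASFT and KCS20 among them, was 0.02 at 3 h and that over all genes -0.16. Without those genes, differences at 3 h ran from -0.73 for FAR4 to 0.73 for ABCG6.

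From 1 h to 3 h, a comparison that uses no water library, 0 of 9 members were called by limma, against 1.27% of all genes, and 0 had an unadjusted p under 0.05. edgeR and DESeq2 also called 0. The largest difference was 0.91 ± 0.70 for ABCG6 (adjusted p = 0.791), with a 95% interval from -0.56 to 2.38.

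Against the mean of the S0 and PH0 sets, a comparison added after the data had been seen, 5 of 9 members were lower at 3 h, as were 16% of all genes (965 higher and 1912 lower). With TMM scaling the calls over all genes were 1497 higher and 1352 lower, and the same 5 members were lower. ASFT differed by -2.35 ± 0.50 (limma adjusted p = 0.00266) and FAR4 by -2.43 ± 0.61 (0.00817). FAR5 differed by -1.69 ± 0.39 (adjusted p = 0.00408), KCS20 by -1.96 ± 0.49 (0.0075, but 0.0511 without 3 h replicate 2) and CYP86B1 by -2.04 ± 0.47 (0.00463). For CYP86B1 the S0 and PH0 libraries held 48 reads and the 3 h libraries 1, a ratio of 22.1 after scaling with a 95% counting interval from 3.78 to 891. CYP86A1 differed by -0.18 ± 0.20 (adjusted p = 0.523; 0.08 with TMM), GPAT5 by -0.68 ± 0.52 (0.350), KCS2 by -0.59 ± 0.36 (0.236) and ABCG6 by -1.51 ± 0.60 (0.0751). The median of the 9, in which CYP86B1, ASFT and KCS20 had to be low, was -1.69 and that of all genes -0.36. The 6 others ran from -2.43 for FAR4 to -0.18 for CYP86A1. Without CYP86B1, ASFT and KCS20, whose levels in water let them pass the filter, 2 of 6 were lower by limma, FAR4 and FAR5, which were also the 2 called when a level of 20 was required. edgeR called the same 2, and DESeq2 called 3, with ABCG6 (adjusted p = 0.0361). By limma ABCG6 was called with a pseudocount of 5 (0.0202), a depth term (0.00489) and without the root libraries under 600 kiloreads (0.00957). GPAT5 was called with a depth term (0.0424).

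The same reference gave 6 lower members at 1 h (14.9% of all genes lower) and 4 at 2 h (9.8%). Without the 3 genes whose direction the filter fixed these were 3 of 6 at 1 h, FAR4, ABCG6 and KCS2, and 2 of 6 at 2 h, FAR4 and FAR5. The mean of all 3 water sets gave 3 at 1 h (11.7%), 2 at 2 h (6.95%) and 5 at 3 h (13.9%), or 1, 1 and 2 of 6 without those genes, FAR4 at each time and FAR5 at 3 h. Comparison of all 9 treated with all 9 water libraries gave 5 lower and 0 higher, with 24.2% of all genes lower (1191 higher and 2894 lower, or 1830 and 2142 with TMM). Of these 5, ASFT, KCS20 and CYP86B1 had to be lower. The 2 of 6 others called were FAR4, which differed by -1.96 ± 0.41, and FAR5, by -0.99 ± 0.26 (limma adjusted p = 0.0015 and 0.00696). ABCG6 (-1.05) was called by limma with a pseudocount of 5 (0.0198), with a depth term (7.01e-04) and without PH0 replicate 1, 1 h replicate 3 or 3 h replicate 1. KCS2 (-0.56) was called with a depth term (0.0403) and without S0 replicate 1 or 1 h replicate 3. CYP86A1 differed by 0.09 ± 0.13 (adjusted p = 0.633, 95% interval -0.19 to 0.37). These comparisons share their water libraries with each other, so they do not stand as separate support. The endodermis markers given above moved in the same direction, and their part in these results was not tested.

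**Figure D2:**
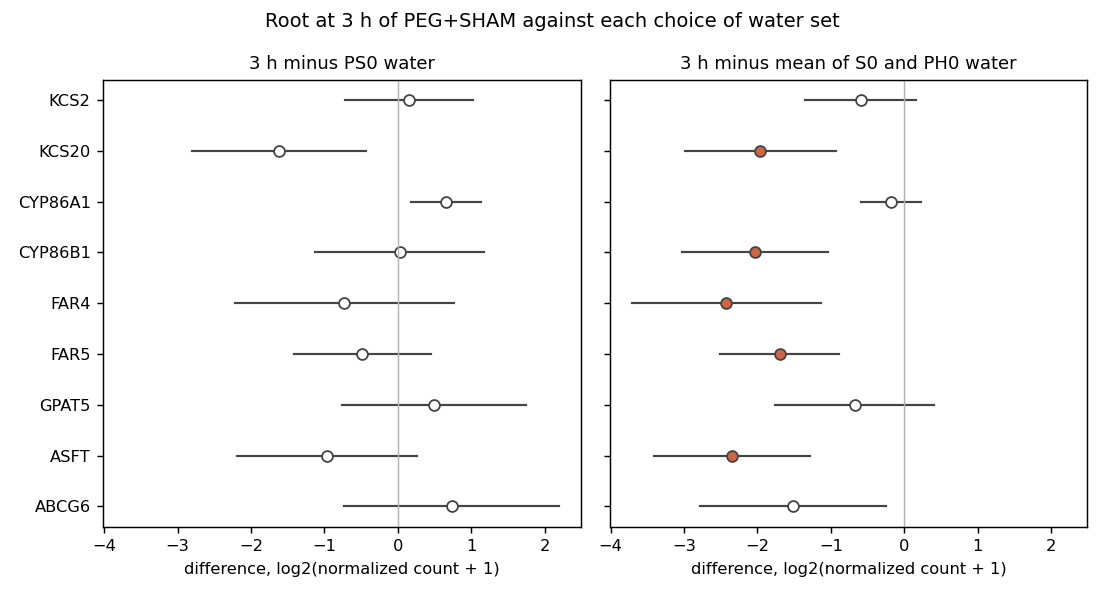
Difference between 3 h of PEG with SHAM and water (horizontal axes, log2 of normalized count plus 1) for the 9 tested members, against PS0 on the left and against the mean of S0 and PH0 on the right. Bars are 95% intervals of the limma fit, filled points are calls at adjusted p under 0.05; 0 of 9 are filled on the left and 5 of 9 on the right. Of these 5, CYP86B1, ASFT and KCS20 passed the filter through water libraries alone.

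The water sets carry 1 treatment label but differed in these genes. PS0 lay below the mean of S0 and PH0 for 9 of 9 members (median -1.21, all genes -0.15), and 3 were called lower: CYP86B1 differed by -2.06 ± 0.47 (limma adjusted p = 0.0194), ABCG6 by -2.25 ± 0.60 (0.0455) and CYP86A1 by -0.84 ± 0.20 (0.0218). Of all genes, 2.53% were called lower (169 higher and 302 lower, or 301 and 250 with quantile scaling). GPAT5 differed by -1.17 ± 0.52 (0.245), FAR4 by -1.70 ± 0.61 (0.140), FAR5 by -1.21 ± 0.39 (0.0919) and ASFT by -1.38 ± 0.50 (0.147). Without CYP86B1, ASFT and KCS20, which enter the median above, 2 of 6 were called, ABCG6 and CYP86A1. These 6 ran from -2.25 for ABCG6 to -0.75 for KCS2. For CYP86B1, which entered only through S0, the reads were 48 against 1, a scaled ratio of 11.4 with a counting interval from 1.95 to 459. The call count fell to 1 with edgeR and with TMM scaling, and to 0 without S0 replicate 1, S0 replicate 3, PS0 replicate 3 or PH0 replicate 2. It was 1 without S0 replicate 2, PS0 replicate 1, PS0 replicate 2 or PH0 replicate 3.

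In the same comparison 2 of 8 tested ABA response genes were higher in PS0, where 1.41% of all genes were higher, and 2 of the 8 lay below 0. The 2 called were LTI78 and RD26, genes of the dehydration response, by 2.91 ± 0.26 and 1.14 ± 0.31 (limma adjusted p = 1.02e-05 and 0.046). LTI78 averaged 615.7 ± 83.3 in PS0, 90.1 ± 17.8 in S0 and 73.7 ± 10.4 in PH0 (SD, n = 3). Of 8 endodermis markers 2, ESB1 (-1.17 ± 0.22, 0.00523) and PER64 (-0.91 ± 0.23, 0.0362), were lower in PS0. Their part in the level of the suberin genes was not tested.

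S0 stood above PH0 in mean for all 9 tested members as deposited, while the difference was below 0 for FAR4 with TMM (-0.15) and quantile scaling (-0.24) and for KCS2 with quantile scaling (-0.02). In this comparison, added after the data had been seen, 3.41% of all genes were called higher (408 higher and 55 lower, or 202 and 147 with TMM). Leaving out any 1 of the S0 or PH0 libraries left 1 to 4 called genes in all. Of the 6 members other than CYP86B1, ASFT and KCS20, 0 were called by limma, 0 by edgeR and 0 by DESeq2. Unadjusted limma p was under 0.05 for 2 of these 6 and for 5 of all 9. The filter did not fix the direction of ASFT here, since all 3 S0 and all 3 PH0 libraries reached 5. ASFT differed by 1.24 and was not called by limma. CYP86B1 was called (2.36 ± 0.54, limma adjusted p = 0.0354), but it was tested only because it was high in S0. Its reads were 38 against 10, a scaled ratio of 6.43 with a counting interval from 3.14 to 14.5, and the call was lost without any 1 of the PH0 libraries, while without any 1 of the S0 libraries CYP86B1 no longer passed the filter. CYP86A1 differed by 0.65 ± 0.23 (adjusted p = 0.0882), KCS20 by 1.40 ± 0.56 (0.125) and FAR5 by 1.03 ± 0.44 (0.149). The median of the 9 members, CYP86B1, ASFT and KCS20 included, was 1.01 and that of all genes 0.29. The 6 others ran from 0.15 for FAR4 to 1.03 for FAR5.

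In water, 3 members that passed the filter in both tissues were higher in roots than in shoots. Of the 13218 genes that passed in either tissue 46.6% were higher in roots, a share that includes genes passing through roots alone. CYP86A1 was higher by 4.30 ± 0.23, KCS2 by 3.68 ± 0.29 and KCS20 by 1.17 ± 0.37 (limma adjusted p = 4.75e-17, 6.80e-13 and 0.00652). KCS2 passed in shoots only through treated libraries, so its direction in water was fixed as for members that passed through roots alone. The KCS20 call was lost with edgeR, DESeq2 and quantile normalization. The other 6 tested members passed through roots alone and so had to be higher there. FAR1, too low to test, averaged 1.94 ± 1.53 in the 9 root and 1.16 ± 1.22 in the 9 shoot water libraries (SD). CYP86B1 had 0 reads in all 18 shoot libraries and ASFT 3. The endodermis markers summed to at most 93.1 in shoot libraries.

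Of the 3 members tested for it, KCS2 was the 1 called for a response that differed between the tissues. In shoots it stood at 0, 0 and 1.1 in PS0 water, 0, 0.6 and 2 at 1 h, 6.3, 9 and 11.4 at 2 h, then 29.7, 16.2 and 26.2 at 3 h. The S0 and PH0 shoot libraries held at most 1.8, so the 2 h and 3 h libraries lie above every other shoot library. Some shoot libraries were shallow: PS0 replicate 1 held 512.6 kiloreads and 2 h replicate 2 held 340.2, where the value of 9 rests on 2 reads. PH0 replicate 1 held 161.7, where 1 read is worth 11.1, so its 0 says little. At 3 h the shoot libraries held 69 reads against 2 in PS0, a scaled ratio of 29.9 with a 95% counting interval from 7.98 to 252. The fitted difference was 4.25 ± 0.61 (limma adjusted p = 6.06e-05; 6.66% of tested shoot genes higher; comparison added after the data had been seen). KCS2 passed the shoot filter only through its 2 h and 3 h libraries. It was also called with no filter, at an adjusted p of 1.32e-04.

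In roots the 3 h difference of KCS2 from PS0 was 0.15 ± 0.42, and root minus shoot gave -4.09 ± 0.69 (adjusted p = 3.22e-04, 95% interval -5.51 to -2.68; 3.83% of all genes called). At 3 h, KCS2 thus stood at 9.6 to 15.6 in roots and at 16.2 to 29.7 in shoots. Of the other 2 members tested in this comparison, CYP86A1 gave 1.54 ± 0.57 (adjusted p = 0.144) and KCS20 -1.30 ± 0.94 (0.542). CYP86A1 was called without shoot PS0 replicate 3 (2.27, adjusted p = 0.00265).

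**Figure D3:**
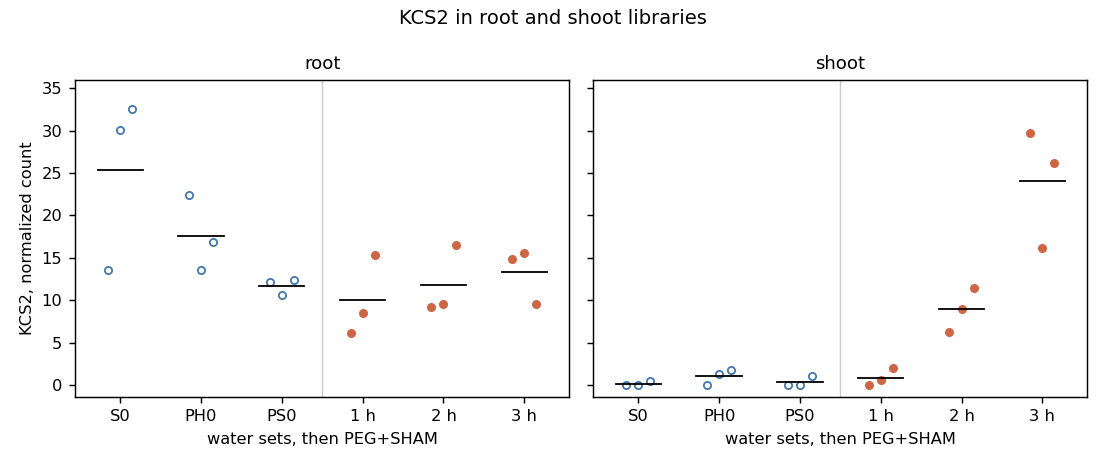
Normalized counts of KCS2 (vertical axis) in root libraries on the left and shoot libraries on the right. Open points are water sets, filled points PEG with SHAM for 1, 2 and 3 h, black lines are means of 3 libraries; in shoots the 3 h libraries reach 16.2 to 29.7 while all shoot water libraries are at or below 1.8.

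Levels of the members correlated across the 18 root libraries, and less so within groups. The same measure over all genes was not computed. CYP86B1, ASFT and KCS20 share a higher level in water that the filter fixed. Over the 36 pairs of tested members, Pearson's r of log2 levels ran from 0.039 to 0.85 with a median of 0.61, and no pair was below 0. After group means were removed it ran from -0.69 to 0.93, with a median of 0.21 and 10 pairs below 0. The highest pair across libraries was FAR4 with ABCG6 (0.85), and the lowest GPAT5 with ASFT (0.039). ASFT stood apart within groups, with r = -0.48 to the mean of the others, where GPAT5 had 0.71, FAR4 0.80 and ABCG6 0.78. The points share libraries, size factors and depth, and low counts in the shallowest libraries enter all of these values, so the correlations are a description.

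Of 11941 other tested genes, the 8 that followed the mean of the members most closely over the 18 libraries had r from 0.90 to 0.92. They were the loci AT2G24170, AT2G25520 and AT5G42860, the methionine synthase MS2, the phospholipase PLDEPSILON, the carboxypeptidase-like gene scpl48, CYP79F2 and FMO GS-OX3. CYP79F2 and FMO GS-OX3 are genes of aliphatic glucosinolate synthesis. Within groups their r was 0.52 to 0.84. The pattern they share includes the level differences among water sets.

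Other genes of the barrier were read from lists. Of all genes, 3.49% were higher and 3.07% lower at 3 h against PS0, and 8.08% higher and 16% lower against S0 and PH0, which are the shares to set beside each count. Of 9 tested further suberin genes, ABCG1, a transporter of suberin in roots, was the 1 called at 3 h against PS0 (1 higher, 0 lower). It rose from 15.2 ± 2.48 to 58.7 ± 23.4 (SD, n = 3; 1.81 ± 0.53 SE, limma adjusted p = 0.0462). Against S0 and PH0 it was also higher (1.62 ± 0.45, adjusted p = 0.0152), and 3 were lower: KCR1, a reductase of chain elongation (-2.03 ± 0.51), ABCG20, a transporter acting with ABCG6 (-1.93 ± 0.43), and LACS2, an acyl-CoA synthetase (-0.97 ± 0.23), with adjusted p of 0.00781, 0.00336 and 0.00547. KCR1 was higher in S0 than in PH0 by 2.66 ± 0.59 (limma adjusted p = 0.0302), so its lower level at 3 h is against a reference that differed within itself. Few calls between S0 and PH0 held when any 1 of their libraries was left out.

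Of the regulators, 7 of 10 were in the table and 3 tested, and none was called at 3 h against PS0. Against S0 and PH0, NAC046, known to promote suberin synthesis, differed by -1.39 ± 0.37 and MYB92, a MYB activator, by -1.83 ± 0.55 (limma adjusted p = 0.0118 and 0.0221). MYB92, at 0 to 7.9 normalized counts, passed the filter through water libraries alone and so had to be lower. Among cutin relatives, CYP86A2 was 1 of 8 called against PS0 at 3 h, higher by 0.88 ± 0.25 (adjusted p = 0.0428), and GPAT4 and GPAT6 were lower against S0 and PH0 (-1.33 ± 0.36 and -2.23 ± 0.49, adjusted p = 0.0123 and 0.0031). Phenylpropanoid genes, which supply ferulate, gave 0 of 11 against PS0 and 7 of 11 lower against S0 and PH0. C4H (-2.40 ± 0.47), 4CL1 (-2.03 ± 0.40) and CCOAOMT1 (-2.27 ± 0.47) were among them, with adjusted p of 0.00137, 0.00147 and 0.00187. C4H and CCOAOMT1 also differed between S0 and PH0, by 3.03 ± 0.55 and 2.38 ± 0.54 (limma adjusted p = 0.0138 and 0.032). In that comparison few calls held when 1 library was left out.

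Response and cell-type lists moved in both directions in these roots. At 3 h against PS0, 7 of 8 ABA response genes were higher, among them MAPKKK18 (6.32 ± 0.39), HAI1 (5.66 ± 0.50) and AFP1 (3.83 ± 0.34), while NCED3 and RD29B passed the filter through treated libraries alone. Of 8 endodermis markers 3 were lower: CASP1 (-1.25 ± 0.22), CASP2 (-1.39 ± 0.24) and ESB1 (-1.21 ± 0.25), with limma adjusted p of at most 0.00541. CASP1 and CASP2 are proteins of the Casparian strip domain and ESB1 acts in the strip. In the same comparison none of the 9 suberin members was called by limma. Against S0 and PH0, 5 of the 8 endodermis markers were lower, among them ESB1 (-2.38 ± 0.22), CASP1 (-1.77 ± 0.19) and CASP2 (-1.43 ± 0.21), and 1 of the 5, SGN3, passed the filter through water libraries alone. Of 5 tested markers of root outer cells, 3 were lower against both references, with EXPA18 at -2.90 ± 0.29, EXPA7 at -2.74 ± 0.31 and COBL9 at -2.50 ± 0.47 against PS0, all 3 genes of root hair growth. The 7 root vascular markers rose in sum, from 180 to 188.3 in PS0 to 313.5 to 423.6 at 3 h, with 212.1 to 286.8 in S0 and 161.6 to 172.2 in PH0. A sum rests mostly on the most abundant genes. The median difference of those tested was 0.19 against PS0 (all genes -0.16), with 1 below 0. Against S0 and PH0 it was -0.07 (all genes -0.36), with 3 below 0. Of 6 tested, 1 was higher against PS0, the phloem sucrose transporter SUC2 (1.51 ± 0.33, limma adjusted p = 0.00892). Against S0 and PH0 SUC2 was also higher (1.65 ± 0.29) and VND7, which passed the filter through water libraries alone, was lower. The part of any of these cell types in the level of the suberin genes was not tested.

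**Figure D4:**
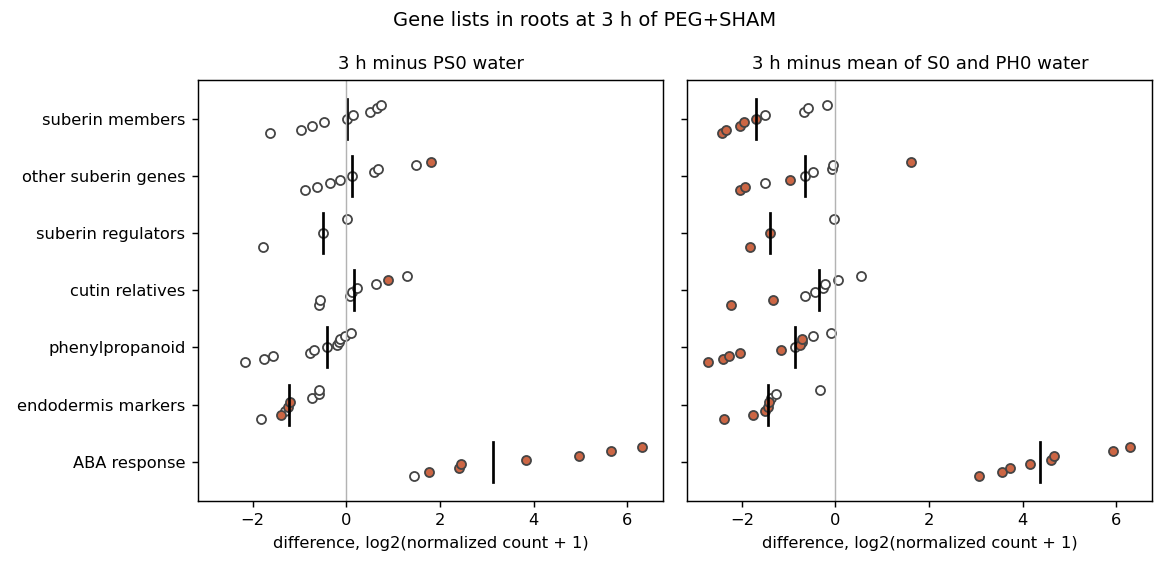
Differences between 3 h of PEG with SHAM and water (horizontal axes, log2 of normalized count plus 1) for each tested gene of 7 lists, against PS0 on the left and the mean of S0 and PH0 on the right. Filled points are calls at adjusted p under 0.05 and black bars are list medians. On the left 7 of 8 ABA response genes and 0 of 9 suberin members are filled. There 3.49% of all genes were higher and 3.07% lower. Of the 8, NCED3 and RD29B passed the filter through treated libraries alone. Of the 9, CYP86B1, ASFT and KCS20 passed it through water libraries alone.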

How the data were processed

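Values were taken from 1 deposited table of normalized signal for 16283 genes and 36 libraries, whose values are multiples of 1 step per library, rounded to 0.1, so that each step is the worth of 1 read. HTSeq and DESeq2 are named in the submitters' processing notes, as are the aligner STAR 2.4.2a, cutadapt and bcl2fastq. Build, strand setting and molecular identifiers are not given there. Whole reads were recovered by a step search (100% of the values within 0.05 of a multiple; counts of 36 simulated libraries recovered) and served for depth, edgeR and DESeq2. In the root library with the smallest step the multiples are close to the rounding, so recovery tells less there.

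The main test was limma 3.58.1 (R 4.3.3) with a mean-variance trend on log2(normalized count + 1), 18 root libraries and 6 group means, or 36 libraries and 12 group means between tissues. The filter was 5 in 3 libraries of a tissue (of each tissue for the response difference, of either for root against shoot). p-values were adjusted by Benjamini-Hochberg over all tested genes, with calls under 0.05. Alternatives were edgeR 4.0.16, DESeq2 1.42.0, TMM and quantile scaling, a pseudocount of 5, other filters, a replicate block, a depth term, other water references, the compared groups fitted alone and leaving out libraries. On simulated counts for the 3 h comparison with 11304 genes, 200 of them changed, limma called 80% of 4-fold and 11% of 2-fold changes. The changed genes were drawn from those averaging at least 20 normalized counts in roots. KCS2, KCS20, CYP86B1, ASFT and ABCG6 averaged less in both water and treated roots, so these shares do not describe them. FAR4 and FAR5 averaged 21.3 and 26.1 in water and 4.71 and 11.4 in treated roots. Over all 18 root libraries both averaged under 20, so the shares do not describe them either. p-values measure the spread between libraries of pooled seedlings.

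Members, lists and comparisons were chosen with earlier results of these data known. Every member is named. From each other list the 3 called genes with the largest moderated statistic in a comparison could be named, and the 8 genes most like the mean of the members. Gene identifiers matched RefSeq TAIR10.1 locus tags for 99.39% and that annotation gave symbols and promoters. Replicate numbers were not used to pair libraries in the main test. Root and shoot libraries of the same group and number were not checked for pairing. Intervals on reads cover counting error only.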

Additional observations from a re-analysis of the deposited data

Results flagged for a closer look

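KCS2 responded differently in the 2 tissues at 3 h, by a test of the difference itself: the log2 response in roots minus that in shoots was -4.09 ± 0.69 (limma adjusted p = 3.22e-04). The 3 shoot libraries stood at 29.7, 16.2 and 26.2 normalized counts against 0, 0 and 1.1 in PS0, and the root libraries at 14.9, 15.6 and 9.6 against 12.1, 10.6 and 12.4. It was called under every setting that kept KCS2 in the test, with adjusted p from 7.34e-05 with a depth term to 0.00203 with DESeq2. A filter of 20 in 3 libraries of each tissue left no member to test. KCS2 passed the shoot filter only through treated libraries, and with no filter the adjusted p was 6.02e-04.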

How the results depend on the processing

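The number of members called against PS0 depended on the water reference. The counts in this section include CYP86B1, ASFT and KCS20, which passed the root filter through water libraries alone. At 1 h it was 0, and 3 against all water, 6 against S0 and PH0 and 1 with a depth term. At 2 h it was 0, and 2 against all water and 4 against S0 and PH0. At 3 h it was 0, and 5 against either reference and 1 with DESeq2. With a filter of 20, 2 rather than 5 members were lower in all treated against all water and in 3 h against S0 and PH0. For PS0 against the other water sets edgeR and TMM gave 1 rather than 3. For S0 against PH0 the 1 call became 2 with a pseudocount of 5, 0 with a filter of 20, 4 with a depth term and 3 without the root libraries under 600 kiloreads. That last alternative was chosen after seeing the data and left out no shoot library.

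Leaving out 1 library gave 0 to 1 calls at 1 h, 0 to 0 at 2 h and at 3 h against PS0 and from 1 h to 3 h, 4 to 7 for all treated against all water, 0 to 3 for PS0 against the other water sets, 8 to 9 for root against shoot, 1 to 2 for root minus shoot and for the shoot at 3 h, 0 to 0 for S0 against PH0 and 4 to 5 for 3 h against S0 and PH0. The call gained at 1 h was KCS20 without replicate 1 of that group, and that gained for root minus shoot and the shoot was CYP86A1 without shoot PS0 replicate 3. Of the single member values under alternatives, 1505 kept their direction and call, 35 lost and 48 gained a call and 112 changed direction, of which 108 were called under neither setting and the other 4 are CYP86B1 under another water reference. DESeq2 gave no adjusted p for CYP86B1 in PS0 against the other water sets, and a filter of 20 left no member to test for root minus shoot and the shoot. TMM moved the median of all genes by 0.22 at 3 h against PS0 and by -0.30 between S0 and PH0. Same-numbered root libraries correlated with a mean r of 0.041 over 45 pairs (-0.47 to 0.51, 15 over 0.1), which does not settle whether the numbers pair them. Root and shoot libraries of the same group and number were fitted as independent, and their pairing was not checked. The replicate block gave 2 calls rather than 3 for PS0 against the other water sets and left the other counts as they were. CYP86B1, FAR1 and ASFT rest on 58, 37 and 168 root reads, so depth limits what can be said of them.

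At 1 h against PS0 the sign changed for KCS2 to 0.051 with edgeR and for GPAT5 to -0.21 with a depth term, -0.24 against all water and -0.63 against S0 and PH0. The value of FAR5 turned to -0.036 with DESeq2, -0.058 with a depth term, -0.30 without the shallow libraries, -0.69 against all water and -1.10 against S0 and PH0 and that of ABCG6 to 1.15 with edgeR, 0.99 with DESeq2, 0.014 with TMM, 0.49 with quantile scaling, 0.10 with a pseudocount of 5 and 0.75 without the shallow libraries. The value of CYP86B1 turned to -1.20 against all water and -1.89 against S0 and PH0 and that of CYP86A1 to -0.27 against S0 and PH0. At 2 h the sign changed for KCS2 to 0.18 with edgeR, 0.095 with DESeq2, 0.13 with TMM, 0.12 with quantile scaling and 0.0048 without the shallow libraries and for GPAT5 to -0.22 against S0 and PH0. The value of FAR5 turned to 0.026 with quantile scaling and that of ABCG6 to -0.078 with a depth term, -0.71 against all water and -1.46 against S0 and PH0. The value of CYP86B1 turned to -0.038 with a depth term, -0.084 without the shallow libraries, -1.30 against all water and -1.99 against S0 and PH0 and that of CYP86A1 to -0.13 against S0 and PH0. At 3 h the sign changed for KCS2 to -0.0074 with a depth term, -0.34 against all water and -0.59 against S0 and PH0 and for GPAT5 to -0.37 with a depth term, -0.28 against all water and -0.68 against S0 and PH0. The value of ABCG6 turned to -0.17 with a depth term, -0.77 against all water and -1.51 against S0 and PH0 and that of CYP86B1 to -0.59 with edgeR, -0.99 with DESeq2, -0.088 with a depth term, -0.13 without the shallow libraries, -1.35 against all water and -2.04 against S0 and PH0. The value of CYP86A1 turned to -0.18 against S0 and PH0. From 1 h to 3 h the sign changed for GPAT5 to 0.041 with TMM and for FAR4 to -0.60 with edgeR, -0.58 with DESeq2, -0.060 with quantile scaling, -0.026 with a pseudocount of 5 and -0.80 without the shallow libraries. The value of ABCG6 turned to -0.072 with edgeR and -0.12 without the shallow libraries and that of ASFT to 0.32 with edgeR, 0.27 with DESeq2 and 0.22 without the shallow libraries. The value of KCS20 turned to -0.43 with edgeR, -0.43 with quantile scaling, -0.034 with a pseudocount of 5 and -0.46 without the shallow libraries and that of CYP86A1 to -0.15 without the shallow libraries. In all treated against all water the sign changed for GPAT5 to 0.29 with edgeR, 0.17 with DESeq2, 0.077 with TMM, 0.095 with quantile scaling and 0.046 without the shallow libraries. In S0 against PH0 the sign changed for KCS2 to -0.022 with quantile scaling and for FAR4 to -0.092 with edgeR, -0.029 with DESeq2, -0.15 with TMM and -0.24 with quantile scaling. In 3 h against S0 and PH0 the sign changed for CYP86A1 to 0.060 with edgeR and 0.082 with TMM. With 1 library left out, differences at 1 h spanned 0 for GPAT5 (-0.16 to 1.48), FAR4 (-1.63 to 0.075), FAR5 (-0.33 to 0.46) and ABCG6 (-1.07 to 0.85). At 2 h such differences spanned 0 for KCS2 (-0.29 to 0.10), FAR5 (-0.62 to 0.17) and CYP86B1 (-0.31 to 0.38). At 3 h they spanned 0 for CYP86B1 (-0.31 to 0.33). From 1 h to 3 h they spanned 0 for GPAT5 (-0.98 to 0.65), FAR4 (-0.80 to 0.90), ABCG6 (-0.12 to 1.80), CYP86B1 (-0.48 to 0.019), ASFT (-0.74 to 0.22), KCS20 (-0.46 to 0.70) and CYP86A1 (-0.15 to 0.25). In all treated against all water they spanned 0 for GPAT5 (-0.35 to 0.19). In the shoot at 3 h they spanned 0 for KCS20 (-1.02 to 0.21).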
